A study of Mus musculus with 6 samples.

Results

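Notch signaling was examined through 10 genes, the receptors Notch1, Notch2 and Notch3, the ligands Dll1, Dll3 and Jag1, and the effectors Hes1, Hes5, Hes6 and Hey1, in mouse cortical cultures with and without knockdown of Neurod2. A member was taken as every locus of the deposited table whose span overlapped that of the annotated gene by at least 0.5 of their union. This found all 10 genes, at 14 of the 32357 loci of the table. The cultures were prepared from the cortex of Balb/c embryos at E14.5 (days of gestation), and dissociated cells were nucleofected with shRNA plasmids on the pSuperneoGFP backbone and plated in medium with serum. The Neurod2 knockdown group held 4 libraries, 2 with shNeurod2-1 and 2 with shNeurod2-2, and the control group held 2 libraries with a non-silencing shRNA. RNA was collected at 4 days in vitro by the sample labels, while the methods of the study name another day. No sort of transfected cells is described, so cells that took up no plasmid may be part of each culture, and the labels do not say whether libraries of a group came from separate cultures.

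Both shRNAs against Neurod2 share 1 pooled level in the authors' table, set beside 1 pooled level of the non-silencing libraries, as FPKM (fragments mapped per kilobase of transcript and scaled to library size). The values of single libraries are not used here, so no spread between replicates, no test and no effect of either shRNA alone can be given, and the depth behind a level is unknown. A difference is therefore described by both levels and by the log2 ratio of the knockdown level over the non-silencing level, and is read against the same ratio over 12610 tested loci with a mean of at least 1 FPKM. Over these loci the median log2 ratio was -0.03, the middle 90 percent lay between -0.34 and 0.28, and 58.4% of ratios were below 0. Neurod2, the targeted gene, was at 60.3 FPKM in the knockdown and 104.8 FPKM with the non-silencing shRNA, a log2 ratio of -0.80.

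Notch receptors are cleaved when a Delta or Jagged ligand on a neighboring cell binds them, and the freed intracellular domain enters the nucleus and joins the DNA binding protein RBPJ. In the developing cortex this complex activates Hes and Hey genes, whose basic helix-loop-helix (bHLH) products repress proneural genes and keep radial glia as progenitors. Proneural factors such as the Neurogenins in turn activate Delta ligands in cells that leave the progenitor state. NEUROD2 is a neuronal bHLH factor that acts later, in differentiating excitatory neurons.

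The members lay close to the ratio of the table as a whole. No member was over 1.2-fold higher in the knockdown, against 5.80% of the tested loci, and 1 of 10, Dll3, was over 1.2-fold lower, against 7.97% of the loci. No member was over 1.5-fold higher or lower, against 1.35% and 2.02% of the loci. The median log2 ratio of the 10 genes was -0.06, with 2 above 0 and 8 below it, against 58.4% of the tested loci below 0. Of the 10, 7 were below the median of all tested loci. Summed over the 10 genes, the levels came to 240.2 FPKM in the knockdown and 264.8 FPKM with the non-silencing shRNA, and most of the difference came from Hes6. These cultures were measured in bulk, so fewer cells of a type and less RNA per cell cannot be told apart.

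**Figure D1:**
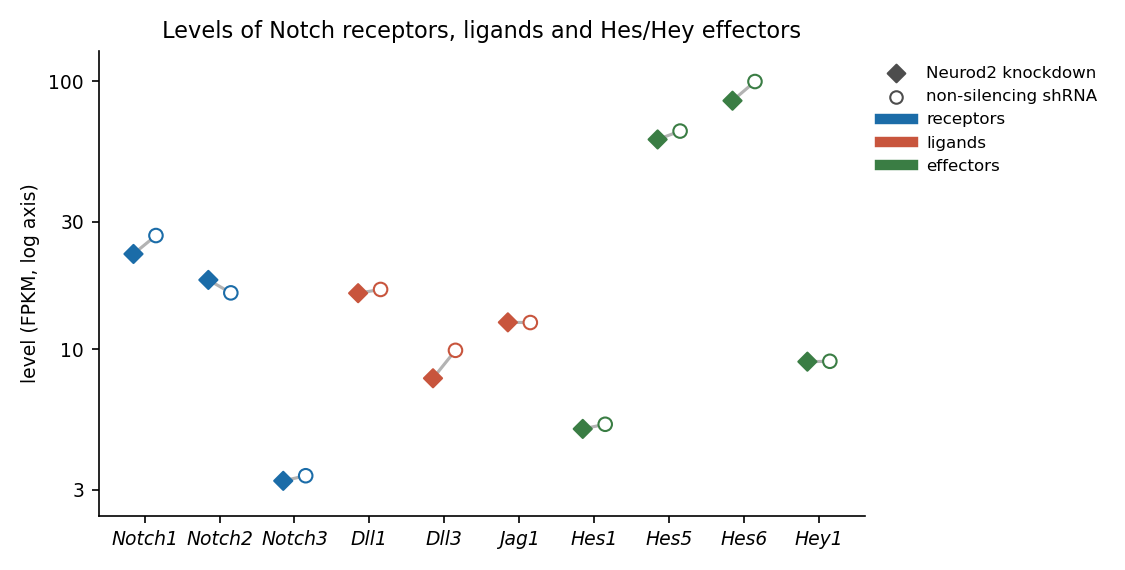
Level in FPKM (vertical log axis) of each of the 10 genes, with filled diamonds for the Neurod2 knockdown and open circles for the non-silencing shRNA, 1 pooled value per group and no error bar. Hes6 and Hes5 sit highest, at 84.7 and 60.7 FPKM in the knockdown and 99.8 and 65.2 FPKM with the non-silencing shRNA, and Dll3 has the steepest line.

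**Figure D2:**
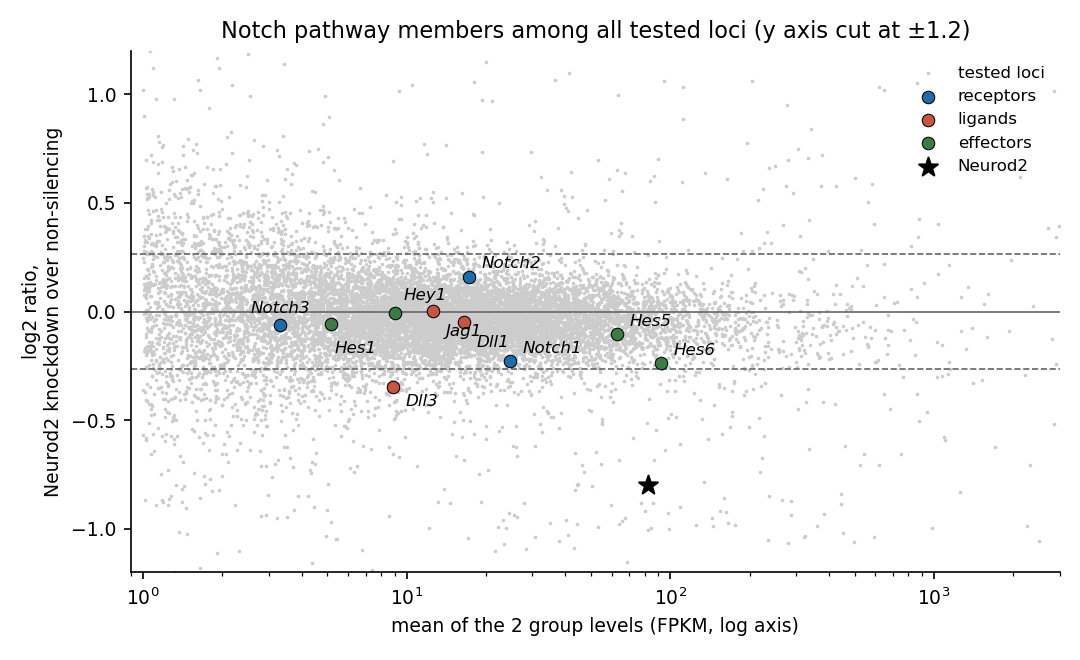
Log2 ratio of the Neurod2 knockdown over the non-silencing shRNA on the vertical axis, drawn to 1.2 either way, and mean FPKM of both groups on the horizontal log axis. The gray points are the 12610 tested loci, less those beyond the axes. Dashed lines mark 1.2-fold. Of the 10 colored members Dll3 alone is outside them, at -0.35, while the star, Neurod2, is at -0.80.

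The sequences upstream of the transcription start were inspected for the sites through which these factors act, because HES and proneural proteins bind the promoters of the pathway's own genes. RefSeq promoters of GRCm38.p6, the assembly of mm10, were at hand for 8 of the 10 members in 10 windows, each of the 250 bases before a start site. Hes1 and Hey1 had no window. The letters searched on both strands were CANNTG (the E-box of bHLH proteins), CAGATG (the form of E-box that NEUROD factors prefer), TGGGAA (the core of the RBPJ site) and CACNAG (the N-box of HES repressors). CAGATG is itself a CANNTG match. Hes5 was the only member with the RBPJ core, with matches that begin 226 and 82 bases before its start, and 21.6% of 32851 promoter windows of the whole table held at least 1. CANNTG was found in 7 of the 10 windows, those of Dll1, Dll3, Jag1, Hes5 and Hes6, against 66.2% of all windows, and in none of the windows of the 3 receptors. By the annotation all 250 bases of the Dll3 window, 153 of the window at the inner Dll1 start and 124 of the Jag1 window are also UTR of some transcript, so these windows hold transcribed sequence. CAGATG was found in no member window, against 14.4% of all windows, and CACNAG in 4, those of Notch1, Notch2, Notch3 and 1 of Hes6, against 36.7%. A match is a stretch of letters and no measured site, and these windows leave out distal elements.

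Windows of the effectors Hes5 and Hes6, the most abundant members, and of Dll1 are shown 5′ to 3′ on the strand of the gene, with every CANNTG and TGGGAA (or its reverse complement TTCCCA) in capitals. Hes5 is at chr4:154960673-154960922 on the plus strand. Hes6 has start sites with windows at chr1:91414039-91414288 and chr1:91413223-91413472, and Dll1 is shown at chr17:15376933-15377182, all on the minus strand.
Hes5: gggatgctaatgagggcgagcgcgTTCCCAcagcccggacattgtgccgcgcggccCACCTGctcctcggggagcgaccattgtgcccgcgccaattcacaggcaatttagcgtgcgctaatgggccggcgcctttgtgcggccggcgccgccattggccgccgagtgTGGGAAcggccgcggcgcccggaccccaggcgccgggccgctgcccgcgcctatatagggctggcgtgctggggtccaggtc
Hes6, outer start: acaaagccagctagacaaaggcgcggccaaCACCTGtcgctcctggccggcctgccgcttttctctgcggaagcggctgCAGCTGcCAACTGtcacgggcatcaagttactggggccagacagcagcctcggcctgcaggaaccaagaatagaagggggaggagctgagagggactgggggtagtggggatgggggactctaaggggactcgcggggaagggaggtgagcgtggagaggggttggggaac
Hes6, inner start: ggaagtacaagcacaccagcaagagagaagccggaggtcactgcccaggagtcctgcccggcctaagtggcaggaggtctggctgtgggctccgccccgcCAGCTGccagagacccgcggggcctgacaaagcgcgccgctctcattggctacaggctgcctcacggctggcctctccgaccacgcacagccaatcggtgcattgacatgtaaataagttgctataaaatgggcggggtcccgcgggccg
Dll1, outer start: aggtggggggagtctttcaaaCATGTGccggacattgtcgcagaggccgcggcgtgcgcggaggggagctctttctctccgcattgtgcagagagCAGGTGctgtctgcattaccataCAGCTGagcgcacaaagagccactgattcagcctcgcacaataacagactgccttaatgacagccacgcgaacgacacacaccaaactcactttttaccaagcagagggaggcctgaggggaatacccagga
The inner start of Hes6 is the edge of the measured locus, whereas the outer starts of Hes6 and Dll1 lie 816 and 1109 bases beyond it. Hes5 holds the RBPJ core on both sides of its single E-box. Hes6 holds E-box letters at both starts and no RBPJ core, and Dll1 holds 3 E-boxes at its outer start. Whether any of these letters bears on the regulation or the level of its gene was not tested.

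**Figure D3:**
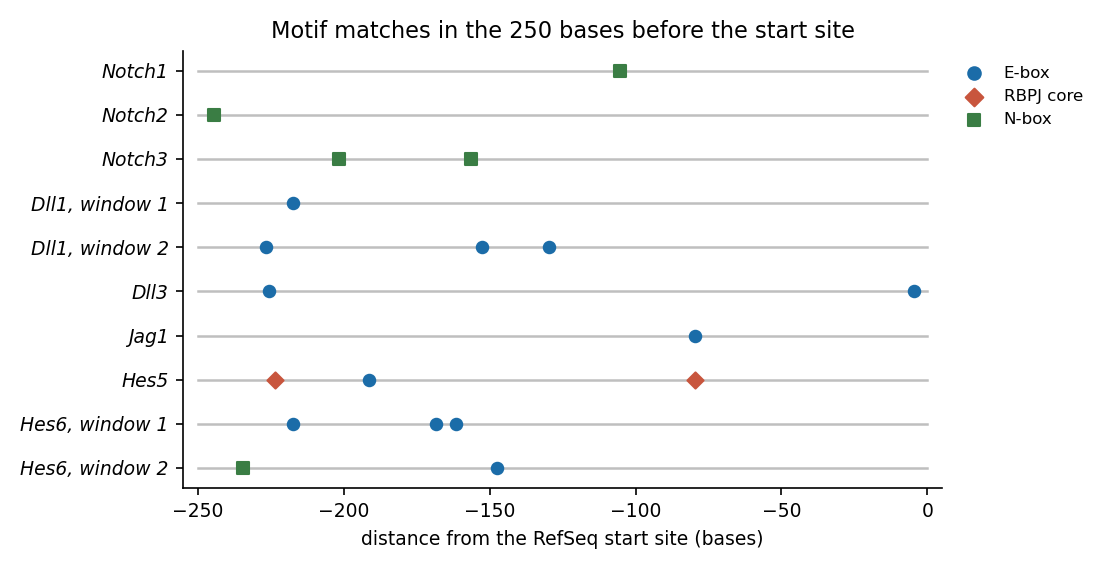
Positions of E-box (CANNTG), RBPJ core (TGGGAA) and N-box (CACNAG) letters on both strands in the 250 bases before the RefSeq start site (horizontal axis, bases from the start), 1 line per promoter window. The 2 RBPJ core matches are both in Hes5, and the receptor windows hold N-box letters without an E-box.

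Among the receptors, Notch1 was the most abundant and lay on the lower side in the knockdown. Notch1, the receptor with the broadest role in cortical progenitors, was at 22.7 FPKM in the knockdown and 26.6 FPKM with the non-silencing shRNA, a log2 ratio of -0.23, and 10.6% of the tested loci had a lower ratio. Notch2, a receptor that radial glia express along with Notch1, was at 18.2 FPKM in the knockdown and 16.3 FPKM with the non-silencing shRNA. Its log2 ratio of 0.16 was the highest of the 10 members, and 88.4% of the tested loci had a lower one. Notch3, known best from the mural cells of blood vessels and also found in progenitors, was at 3.24 FPKM in the knockdown and 3.38 FPKM with the non-silencing shRNA, a log2 ratio of -0.06. The Notch2 level was 0.80 of the Notch1 level in the knockdown and 0.61 of it with the non-silencing shRNA. As the sum of the 3 receptors, 44.1 FPKM were measured in the knockdown and 46.2 FPKM with the non-silencing shRNA.

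In GENCODE M21, on GRCm38, Notch1 lies on chromosome 2 from 26457903 to 26516663 on the minus strand, Notch2 on chromosome 3 from 98013527 to 98150361 on the plus strand and Notch3 on chromosome 17 from 32120820 to 32166852 on the minus strand. Their longest transcripts that the annotation marks as principal have 34, 34 and 33 exons. These are the 3 members with more than 1 locus at their position, and the locus with the highest level was taken for the gene. The other loci at Notch1 were at 0.995 FPKM in the knockdown against 0.989 FPKM with the non-silencing shRNA, and at 0 in both groups. The second locus at Notch2 was at 0.423 FPKM in the knockdown and 0.340 FPKM with the non-silencing shRNA, and that at Notch3 at 0.0641 FPKM in the knockdown and 0.0488 FPKM with the non-silencing shRNA. The table does not say which transcript such a low locus stands for, so it may belong to another gene at that position and not to the receptor. The annotation places the microRNA gene Mir6996 on the same strand inside the Notch1 locus, a transcript on the opposite strand, 0610009E02Rik, over 13447 bases of it, and the antisense gene Gm17276 over 28416 bases of the Notch3 locus. Gm42819 and Gm42820 lie on the same strand inside the Notch2 locus. Use of strand in the counting is not stated, so reads of these genes may be part of the receptor levels.

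Among the ligands, Dll3 had the largest difference of all members. Dll3, a divergent Delta protein that stays in the cell and inhibits Notch rather than activating it in a neighbor, was at 7.81 FPKM in the knockdown and 9.93 FPKM with the non-silencing shRNA. The log2 ratio was -0.35, or 0.787-fold, and 4.89% of the tested loci had a lower ratio, or 2.72% of the loci with a mean of 5 to 20 FPKM. Dll1, the Delta ligand that proneural factors activate in newborn neurons and intermediate progenitors, was at 16.2 FPKM in the knockdown and 16.7 FPKM with the non-silencing shRNA, a log2 ratio of -0.05. Jag1, a Jagged ligand, was at 12.6 FPKM in both groups, with a log2 ratio of 0.0022. The ratio of Dll1 to Dll3 was 2.08 in the knockdown and 1.69 with the non-silencing shRNA. Dll1 and Jag1 thus lay near the middle of the table while Dll3 did not, and with pooled values alone it cannot be said whether the ligands differ from each other beyond library spread.

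Dll1 lies on chromosome 17 from 15367354 to 15376872, Dll3 on chromosome 7 from 28293553 to 28302238 and Jag1 on chromosome 2 from 137081456 to 137116644, all on the minus strand. Their longest transcripts that the annotation marks as principal have 11, 9 and 26 exons. No other gene is annotated inside the measured loci of Dll3 and Jag1, and 824 bases of the Dll1 locus overlap A930024N18Rik on the opposite strand.

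The effectors were all below 0 in log2 ratio by unequal amounts, against 58.4% of the tested loci below 0. Relative to the median of all tested loci 3 of 4 were below and Hey1 was above, at 0.03. Hes6, a HES family protein that promotes neuronal differentiation and inhibits HES1, was the most abundant member at 84.7 FPKM in the knockdown and 99.8 FPKM with the non-silencing shRNA. Its log2 ratio was -0.24, and 9.75% of the tested loci had a lower one. Hes5, the Hes gene most closely tied to Notch activity in radial glia, was at 60.7 FPKM in the knockdown and 65.2 FPKM with the non-silencing shRNA, a log2 ratio of -0.10, with 30.7% of the tested loci lower. Hes1, the other main repressor downstream of Notch, was at 5.05 FPKM in the knockdown and 5.26 FPKM with the non-silencing shRNA, a log2 ratio of -0.06. Hey1, a related repressor, was at 9.01 FPKM in the knockdown and 9.04 FPKM with the non-silencing shRNA, a log2 ratio of -0.0048. Of these genes, only Hes6 was over 1.1-fold lower, and with Dll3 and Notch1 it made 3 of 10 members, against 23.4% of the tested loci. Notch2 was the 1 member over 1.1-fold higher, against 14.0% of the loci.

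The order of the effectors was the same in both groups, Hes6, Hes5, Hey1 and then Hes1. The Hes5 level was 12.01 times the Hes1 level in the knockdown and 12.4 times with the non-silencing shRNA. The Hes6 level was 1.40 times that of Hes5 in the knockdown and 1.53 times with the non-silencing shRNA. Over all 10 genes the order differed between the groups at 2 places, since Notch2 stood above Dll1 in the knockdown and below it with the non-silencing shRNA, and Hey1 stood above Dll3 in the knockdown and below it with the non-silencing shRNA. Neighbors in this order cannot be separated by replicate spread. Set against all tested loci, the Hes6 level was above 93.0% of levels in the knockdown and 93.8% with the non-silencing shRNA, and the Notch3 level above 16.4% in the knockdown and 17.2% with the non-silencing shRNA.

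Hes1 lies on chromosome 16 from 30064384 to 30067796 on the plus strand, Hes5 on chromosome 4 from 154960923 to 154962371 on the plus strand, Hes6 on chromosome 1 from 91411483 to 91414038 on the minus strand and Hey1 on chromosome 3 from 8663359 to 8667256 on the minus strand. Their longest transcripts that the annotation marks as principal have 4, 3, 4 and 5 exons. The overlap of locus and gene was lowest for Notch1, Hes6 and Hes1, at 0.649, 0.680 and 0.715 of their union, and the Hes5 locus overlaps Gm20421 on the opposite strand over 757 bases.

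The part of the rest of the pathway that was measured was likewise near the background. Of 52 other listed genes, which were chosen with earlier results of these data known, 44 had a matching locus and 37 of these had a mean of at least 1 FPKM. Of the 37, Tle2 was over 1.2-fold higher, against 5.80% of the tested loci. Mfng and Nrarp were over 1.2-fold lower, against 7.97% of the loci. None was over 1.5-fold higher or lower, against 1.35% and 2.02% of the loci. The median log2 ratio was -0.04, and 22 of 37 were below 0, against 58.4% of the tested loci. Notch4, Dlk2, Maml2 and, of the cleavage and turnover genes, Ncstn, Aph1a, Psenen, Fbxw7 and Dtx3 had no matching locus. Hes2, Hes3, Hes7, Hey2, Heyl, Aph1c and the noncanonical ligand Dlk1 had means under 1 FPKM. Of these, Hes3 alone was over 1.5-fold different among those above 0 in both groups, at 0.0663 FPKM in the knockdown and 0.115 FPKM with the non-silencing shRNA.

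Nrarp, a small ankyrin protein that Notch induces and that dampens it, was at 25.2 FPKM in the knockdown and 30.3 FPKM with the non-silencing shRNA, a log2 ratio of -0.27. Mfng, one of the Fringe enzymes that add sugars to the receptors and tune their choice of ligand, was at 7.29 FPKM in the knockdown and 9.46 FPKM with the non-silencing shRNA, a log2 ratio of -0.37. Its relative Rfng was at 17.1 FPKM in the knockdown and 20.4 FPKM with the non-silencing shRNA, a log2 ratio of -0.25. The 5 glycosylation genes were all below 0, against 58.4% of the tested loci. Among them Lfng, at -0.0049, was above the median of all tested loci, and Poglut1, which adds glucose to the receptors, was at -0.05.

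Among the other ligands, Jag2 had a log2 ratio of -0.18, Dll4 of -0.07 and Dner, a neuronal Delta-like protein, of 0.16, at 63.8 FPKM in the knockdown and 57.1 FPKM with the non-silencing shRNA. The levels of a further locus at the position of Jag2 could not be restored and were not used. Of the 16 genes of receptor cleavage and turnover with a mean of at least 1 FPKM, none was over 1.2-fold different at the locus used. A further tested locus at Mib1, an enzyme for the uptake of ligand, was over 1.2-fold lower, at 19.8 FPKM in the knockdown and 25.4 FPKM with the non-silencing shRNA, a log2 ratio of -0.36. The locus with the higher level at Mib1 was at 94.9 FPKM in the knockdown and 86.8 FPKM with the non-silencing shRNA, a log2 ratio of 0.13. Over the 16 loci used, the largest ratios were 0.22 for Neurl1a, which drives uptake of ligand, 0.17 for Numb, which restrains Notch, and -0.19 for its relative Numbl. In the nuclear complex of 12 measured genes, the corepressor genes Tle2 and Tle1 had log2 ratios of 0.28 and -0.24, in opposite directions, and the coactivator gene Maml1 of -0.22.

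**Figure D4:**
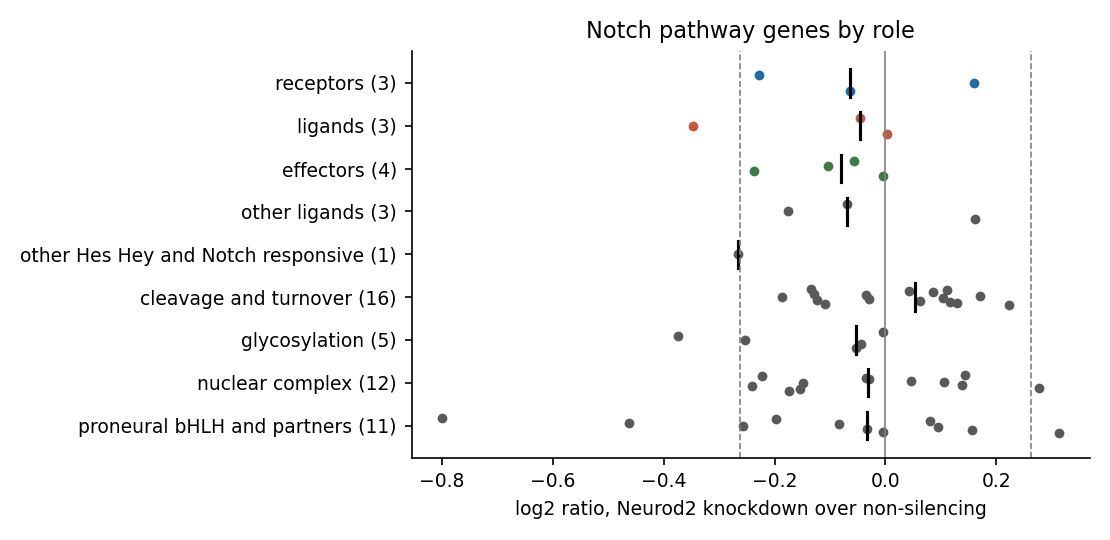
Log2 ratio of the Neurod2 knockdown over the non-silencing shRNA (horizontal axis) of the listed genes with a mean of at least 1 FPKM, 1 row per role with the number of genes in brackets, 1 point per gene and a black bar for the median. Dashed lines mark 1.2-fold. The upper 3 rows are the 10 members, of which Dll3 alone passes a dashed line, and Neurod2 is the point farthest left, at -0.80.

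Of the partners of the pathway, proneural and related bHLH genes, 14 were listed. Of these 14 genes 11 had a locus with a mean of at least 1 FPKM, with a median log2 ratio of -0.03. Neurod1 and Id4 had no matching locus. Of the 11, 2 were over 1.2-fold lower, Neurod2 and Neurog2, against 7.97% of the tested loci. Neurog2, which drives neurogenesis and activates Delta ligands, was at 13.4 FPKM in the knockdown and 18.4 FPKM with the non-silencing shRNA. Its log2 ratio was -0.46. Id3, an inhibitor of bHLH proteins that lacks a DNA binding region, was the 1 gene over 1.2-fold higher, against 5.80% of the tested loci. Id3 was at 52.7 FPKM in the knockdown and 42.4 FPKM with the non-silencing shRNA, a log2 ratio of 0.31. Neurog1, a relative of Neurog2, was under 1 FPKM, at 0.175 FPKM in the knockdown and 0.461 FPKM with the non-silencing shRNA, a log2 ratio of -1.40. Whether these differences are tied to those of Dll3 and Hes6 was not tested.

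Markers were set beside the members because Notch genes are expressed in several cell types. The cultures held neurons, with Tubb3 at 879 FPKM in the knockdown and 839 FPKM with the non-silencing shRNA, and cells with progenitor and glial RNA, with Fabp7 at 1227 FPKM in the knockdown and 1057 FPKM with the non-silencing shRNA. Of 8 radial glia and progenitor markers 6 had a locus, with a summed level of 1529 FPKM in the knockdown and 1356 FPKM with the non-silencing shRNA. Fabp7 made most of this difference, and Pax6 and Sox2 had no matching locus. Hopx was over 1.2-fold higher, against 5.80% of the tested loci. Eomes, the marker of intermediate progenitors, was over 1.2-fold lower, against 7.97% of the loci. Both were named after their values were seen. Hopx was at 35.1 FPKM in the knockdown and 26.3 FPKM with the non-silencing shRNA. Eomes was at 16.1 FPKM in the knockdown and 21.2 FPKM with the non-silencing shRNA. The median log2 ratio of these 6 markers was 0.02, that of 5 markers of cycling cells was also 0.02, and that of 8 markers of excitatory neurons was 0.07. Top2a, a gene of dividing cells, was at 70.0 FPKM in the knockdown and 69.0 FPKM with the non-silencing shRNA. The log2 ratio was -0.02 for Vim, a filament of radial glia, -0.06 for Cdk1, a cell cycle kinase, and 0.20 for Map2, a protein of dendrites.

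Among glia, Gfap, an intermediate filament of astrocytes, was at 35.1 FPKM in the knockdown and 57.4 FPKM with the non-silencing shRNA, and the 6 astrocyte markers summed to 149 FPKM in the knockdown and 168 FPKM with the non-silencing shRNA. Without Gfap the sum was 113.5 FPKM in the knockdown and 110.1 FPKM with the non-silencing shRNA. Gja1, named after its value was seen, was also over 1.2-fold lower, at 6.74 FPKM in the knockdown and 8.40 FPKM with the non-silencing shRNA. Of the 5 astrocyte markers with a mean of at least 1 FPKM, 2 were thus over 1.2-fold lower, against 7.97% of the tested loci. Of these 5, Aldoc was above 0 in log2 ratio and 4 were below it, against 58.4% of the tested loci. Aldoc, the astrocyte marker with the highest level, was at 76.5 FPKM in the knockdown and 69.9 FPKM with the non-silencing shRNA, a log2 ratio of 0.13. The 6 markers of the oligodendrocyte lineage summed to 104 FPKM in the knockdown and 111 FPKM with the non-silencing shRNA. Their median log2 ratio was -0.22, and 3 of them were over 1.2-fold lower, against 7.97% of the tested loci. These were Sox10, Cspg4 and Pdgfra, named after their values were seen, with log2 ratios of -0.49, -0.40 and -0.33. Olig2 was at 36.9 FPKM in both groups, Olig1 had a log2 ratio of -0.11 and Mbp of 0.04. Endothelial RNA, a known source of Notch1, Jag1 and Hey1, was near 0, since all 6 endothelial markers were under 1 FPKM and summed to 0.314 FPKM in the knockdown and 0.160 FPKM with the non-silencing shRNA. Among them Pecam1, Kdr and Tek were over 1.5-fold different at these low levels, with log2 ratios of 0.93, 0.78 and -0.99. The 4 microglia markers with a locus summed to 0.337 FPKM in the knockdown and 0.135 FPKM with the non-silencing shRNA, with Aif1 and Csf1r at log2 ratios of 1.11 and 1.47. Markers of mural cells and fibroblasts summed to 10.9 FPKM in the knockdown and 7.94 FPKM with the non-silencing shRNA, and 3 genes with means under 1 FPKM, Acta2, Col1a1 and Col3a1, made most of this difference. Col1a1, a collagen of fibroblasts, was at 0.975 FPKM in the knockdown and 0.125 FPKM with the non-silencing shRNA, a log2 ratio of 2.96. Col3a1, another collagen, had a log2 ratio of 2.16, at 0.765 FPKM in the knockdown and 0.171 FPKM with the non-silencing shRNA. Acta2, the smooth muscle actin, had a log2 ratio of 1.64, at 1.28 FPKM in the knockdown and 0.409 FPKM with the non-silencing shRNA. Without these 3 genes the sum was 7.87 FPKM in the knockdown and 7.23 FPKM with the non-silencing shRNA. Rgs5, the most abundant of the list, was at 4.92 FPKM in the knockdown and 4.12 FPKM with the non-silencing shRNA, and Dcn had a log2 ratio of 0.01. The part of any of these cell types in the levels of the 10 genes was not tested.

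Markers of Cajal-Retzius cells and Sst stood apart from the members. Reln, Calb2 and Ndnf had log2 ratios of 1.06, 0.90 and 0.72, all over 1.5-fold higher, against 1.35% of the tested loci. The 5 markers of the list summed to 36.1 FPKM in the knockdown and 18.3 FPKM with the non-silencing shRNA. Reln made most of this difference, at 24.3 FPKM in the knockdown and 11.7 FPKM with the non-silencing shRNA. Whether the number of Cajal-Retzius cells differed was not tested. Sst was at 6.55 FPKM in the knockdown and 3.29 FPKM with the non-silencing shRNA, while Gad2, another interneuron gene, was at 2.18 FPKM in the knockdown and 2.49 FPKM with the non-silencing shRNA. Under 1 FPKM on average, Trp73 and Lhx5 of the Cajal-Retzius list had log2 ratios of 0.86 and 1.01, and Dlx5 of the interneuron list of -0.69.

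**Figure D5:**
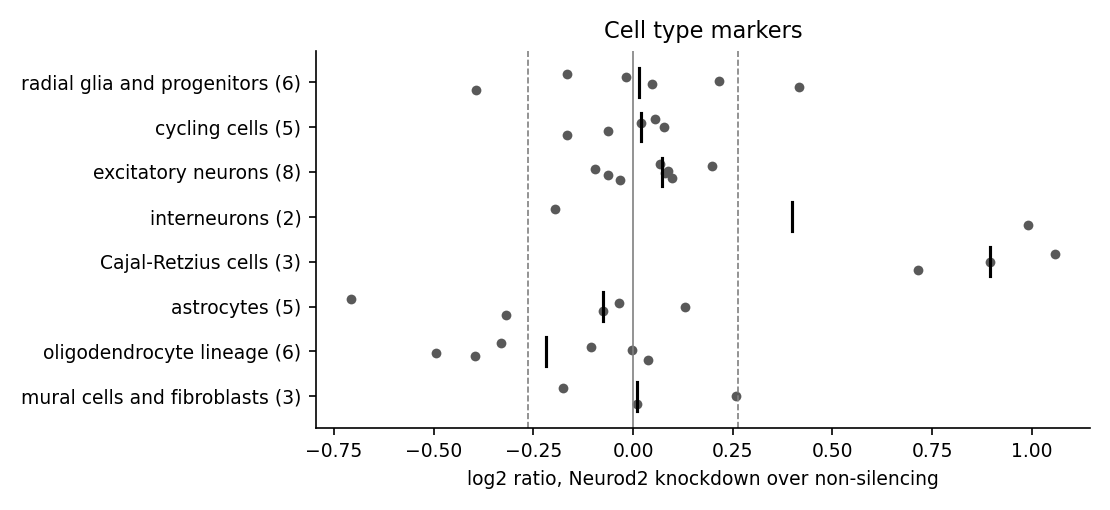
Log2 ratio of the Neurod2 knockdown over the non-silencing shRNA (horizontal axis) of cell type markers with a mean of at least 1 FPKM, 1 row per cell type with the number of genes in brackets and a black bar for the median. Dashed lines mark 1.2-fold. The 3 Cajal-Retzius markers lie between 0.72 and 1.06, and the endothelial and microglia lists are left out because no gene of theirs reached 1 FPKM.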

How the data were processed

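RNA-seq of primary cortical cultures was analysed, with 4 libraries of the Neurod2 knockdown and 2 of the non-silencing shRNA. Per the labels, libraries were sequenced as single-end reads of 50 bases, and the authors used TopHat on mm10, then Cufflinks and Cuffdiff. Tool versions were not given in the sources used here. For each locus the authors deposited 1 FPKM for the knockdown and 1 for the non-silencing libraries, which Cuffdiff scales by transcript length and library size. Log2 fold changes, test statistics, p-values and q-values of the authors' own comparison stand beside them and are not reported here.

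A spreadsheet had turned part of the FPKM cells into times, reading the whole part as hours and the decimals as minutes. The possible numbers of an altered cell were listed and the pair kept whose log2 ratio matched the deposited log2 column within 2e-05, the only use of that column. Of 13498 loci with status OK, 8580 had both cells intact, 4885 were restored and 33 were left open. Cells of 4 of the 10 members, Notch1, Notch2, Dll1 and Jag1, were restored. In 13429 intact loci with both levels above 0, all 13429 gave the log2 column within this tolerance. The step was tested on simulated data.

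Loci were matched to GENCODE M21 genes (GRCm38, the assembly of mm10) at an overlap of at least 0.5 of the union. No test was possible with 1 value per group. Log2 ratios were computed without a pseudocount, and background loci had status OK, both levels above 0 and a mean of at least 1 FPKM. The rule for named genes took Neurod2, all members, up to 3 genes of each other pathway list with the largest absolute log2 ratio at a mean of at least 1 FPKM, any listed gene over 1.5-fold at any level, and the 2 most abundant genes of each marker list. For genes with several loci the locus with the highest mean was used, a choice made after seeing the data. The members and lists were chosen with earlier results of these data known. Promoters came from RefSeq (GRCm38.p6). Alternatives were a pseudocount of 0.1 or 1 FPKM, a filter on the mean, an overlap of 0.8, centering, intact cells alone, status and other folds. A planned comparison of HES proteins was not made. Python 3.11.15, pandas 2.3.3, numpy 2.4.6 and matplotlib 3.10.9 were used.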

Additional observations from a re-analysis of the deposited data

How the results depend on the processing

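No paired analysis was possible because the table holds 1 pooled value per group, and leaving out single libraries was not possible for the same reason. A pseudocount of 0.1 or 1 FPKM or centering gave 30 recomputed member log2 ratios, which moved by at most 0.0354, and centering took Hey1 to the other side of 0. The filter on the mean, an overlap of 0.8, intact cells alone and status OK can only keep or drop a member, so their 33 values say nothing of stability. The median of the members, -0.06, was -0.03 after centering and -0.05 at an overlap of 0.8. With intact cells alone, which leaves out Notch1, Notch2, Dll1 and Jag1, the median was -0.08. With a fold of 1.1 in place of 1.2, 1 member was higher and 3 were lower. Counting every locus at a gene's position, an alternative chosen after seeing the data, gave 2 loci over 1.2-fold higher, those of low level at Notch2 and Notch3, in place of 0. The background share over 1.2-fold higher was 3.02% at a mean of at least 5 FPKM, in place of 5.80%, and that over 1.5-fold higher was 2.09% without a filter and 0.886% at a mean of at least 5 FPKM, in place of 1.35%. Read depth is unknown, so the precision of the low levels cannot be given.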
